A study of Mus musculus with 80 samples.

Results

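Dppa3, also called Stella or Pgc7, is 1 gene of the 11475 that all 12 expression tables of a mouse embryonic stem (ES) cell series list by symbol. It was found by that symbol in each table, as 1 entry per table, at chr6:122576427-122580290 of mm9 (5 tables) or within 14 bases of those bounds (7 tables). The gene was selected on its measured levels in these libraries, low in those labelled Sall4 knockout and higher in those labelled as given SALL4A back. Its own levels and ratios are therefore given as a description, with no test.

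DPPA3 is a small, basic nuclear protein of oocytes, early embryos and primordial germ cells, and it is encoded by a maternal-effect gene. In the zygote it shields the maternal genome from oxidation of 5-methylcytosine by TET3, through chromatin that carries dimethylated lysine 9 of histone H3. It also binds UHRF1, the factor that brings the maintenance methyltransferase DNMT1 to replicating DNA, and displaces it from chromatin. In ES cell cultures Dppa3 is expressed by some cells and not by others, and it marks the naive state. ES cells express the spalt-like proteins SALL4 and SALL1, which bind DNA through zinc fingers.

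RNA was sequenced from 12 libraries of 9 groups, and the other 68 of the 80 samples, of chromatin, modified DNA and their inputs, are left aside. Cells heterozygous for Sall4 (Sall4 het) carry the genotype Sall4 flox/-, and cells labelled Sall4 KO carry Sall4 delta/-. Both groups have a replicate 1 labelled strain C57BL/6J and a replicate 2 labelled 129P2/OlaHsd, line E14.1. Sall4 KO cells that received a mutant SALL4A (KO plus mutant) have 1 library under each strain label, and the label of replicate 2 names a Flag-SALL4A-MUT transgene. What the mutation is, and the promoter of the transgene, are not given in the sources used here. Of the groups with 1 library, Sall4 KO cells that received wild-type SALL4A (KO plus wild type), cells lacking both genes (DKO, Sall1-/-/Sall4-/-), the wild-type cells that serve as their control, Sall1 flox/- (Sall1 het) and Sall1 delta/- (Sall1 KO) are labelled C57BL/6J. The TT2 line is wild type, from a (C57BL/6NCrlj x CBA/JNCrlj)F1 cross. In each Sall4 group with 2 libraries, both carry the same reference to a biological sample in the labels, and nothing says that they came from separate cultures. Their spread may therefore be technical.

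The tables hold FPKM or RPKM, in which reads per gene are divided by length and scaled to the mapped total, so the depth is unknown. The ES cell label was read against 8 identity markers, of which Sall4 het and KO replicate 2 list 7 and KO plus mutant replicate 2 lists 6. Those listed summed to between 2032 and 2677 over the 12 libraries. Like sums hide differences between markers. In TT2, Pou5f1 was 1703, above every other library. Sox2 (54.5), Zfp42 (100), Tdgf1 (77.3), Klf4 (9.82) and Esrrb (30.3) were lowest in TT2 among the libraries that list them. Nanog (334) and Utf1 (103) in TT2 lay within the range of the others. Sall4 RNA goes against the labels: Sall4 het libraries held 196 and 64.2, those labelled Sall4 KO held 358 and 218, the DKO control 17.6 and the library labelled DKO 109. It was 77.4 and 161 with mutant SALL4A and 97.4 with wild-type SALL4A, each below the Sall4 KO library of the same replicate. A whole-gene value may cover exons that the deletion left in place, so these values check no label. Sall1 fell short of its control in the library labelled DKO, at 2.27 against 13.9. All directions that follow compare libraries by their labels.

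Dppa3 was low in both libraries labelled Sall4 KO and higher in every other library. Sall4 het libraries had a deposited level of 47.7 (FPKM, replicate 1) and 183 (RPKM, replicate 2), and Sall4 KO libraries 2.11 and 3.58. The mutant add-back gave 26.4 and 12.7, and the wild-type add-back 101. Both Sall4 KO libraries lie lowest of all, both mutant libraries lie above them and below both het libraries, and KO plus wild type lies between the het libraries, although the units of replicates 1 and 2 differ. By the deposited values both KO libraries lay below both het libraries in 14.6% of 15094 genes and above both in 17.8%, so such separation is common. Dppa3 stood at 58.4 in the DKO control, 110 in the library labelled DKO, 81.1 in Sall1 het, 72.9 in Sall1 KO and 21.8 in TT2. In bulk RNA, fewer Dppa3-expressing cells and less Dppa3 RNA per cell cannot be told apart.

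**Figure D1:**
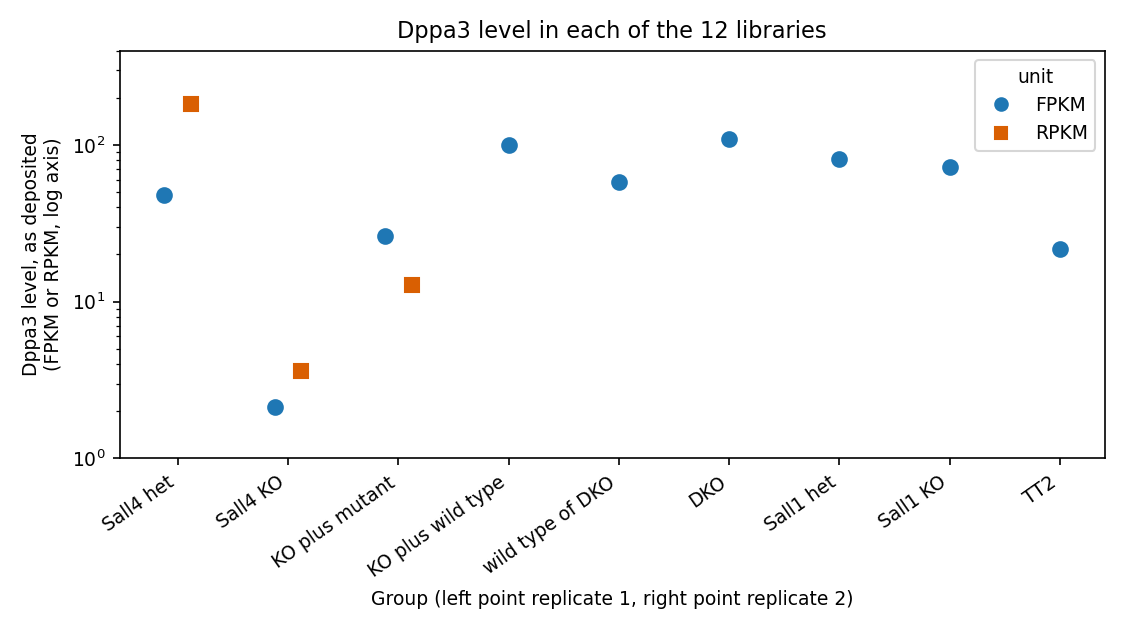
Dppa3 level as deposited (log axis, FPKM as circles and RPKM as squares) in each of the 12 libraries, 1 point per library, with no error bars because no group has more than 2. The Sall4 KO libraries sit at 2.11 and 3.58, below all others, and the library labelled DKO sits at 110.

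The rank of Dppa3 within each library does not depend on the unit. Among the 11475 shared genes, 85.1% and 95.02% lay below Dppa3 in Sall4 het, against 24.2% and 32.3% in Sall4 KO. Over all genes of its own table, which holds many more genes near 0, the share below Dppa3 in Sall4 KO replicate 1 was 60.2%, and among genes at 1 or more it was 11.2%. Among genes at 1 or more it was 20.5% in Sall4 KO replicate 2. The mutant add-back had 81.0% and 63.8% of the shared genes below Dppa3, the wild-type add-back 93.7%. In the DKO pair the share was 94.2% for the library labelled DKO and 89.1% for its control. In Sall1 het it was 92.1%, in Sall1 KO 91.1% and in TT2 83.2%. By rank among the shared genes, too, Dppa3 lay in the lower part in both Sall4 KO libraries only. Over all genes of its own table it did not in Sall4 KO replicate 1, at 60.2%, beside 65.1% in KO plus mutant replicate 2.

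To order the libraries, a scale factor per library (the median ratio over shared genes) was applied, although the tables were made with different annotations and units. From high to low the scaled levels were 161 in Sall4 het replicate 2, 111 in DKO, 105 in KO plus wild type, 79.5 in Sall1 het, 71.2 in Sall1 KO and 56.7 in the DKO control. Then came 40.5 in Sall4 het replicate 1, 38.3 in TT2, 28.5 and 13.5 with mutant SALL4A, and last 2.94 and 1.86 for Sall4 KO. The libraries of 1 group differed by 3.98-fold in Sall4 het, 2.11-fold in KO plus mutant and 1.59-fold in Sall4 KO. Only 1 step between neighbours in this order was larger than the widest of these, the 4.60-fold step from KO plus mutant replicate 2 down to Sall4 KO replicate 2. No other neighbours differed by more than the spread seen within Sall4 het.

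Ratios were taken only within pairs of libraries that share a unit. Each is a log2 ratio of values scaled by the pair's median ratio, with 1 added, which understates the change of low genes, and it is set beside all genes at 5 or more in either library. In Sall4 KO over het the Dppa3 ratio was -3.96 in replicate 1 and -5.38 in replicate 2, which is 22.6-fold and 51.2-fold lower by the deposited values. In replicate 1 there were 61 of 11335 genes with a lower ratio, and in replicate 2 there were 34 of 11016. Genes at least 2-fold lower made up 4.51% of all genes in replicate 1, 7.8% in replicate 2 and 1.45% in both. Over both replicates the limma estimate for Dppa3 was -4.66 ± 0.72 (log2, SE, n = 2 per group). It was -5.77 without Sall4 het replicate 1 and -3.54 without Sall4 het replicate 2.

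Markers of other cell types were read beside this ratio. The 6 primitive endoderm markers, of which replicate 2 lists 4, summed to 4.01 and 1.80 in Sall4 het and to 9.83 and 6.74 in Sall4 KO, with 1 marker at 1 or more in each het library and 3 and 2 in the KO libraries. The 7 trophoblast markers summed to 112 and 58.1 in Sall4 het and to 160 and 70.8 in Sall4 KO, with 4 and 6 at 1 or more in het and 6 in each KO library. In replicate 1 the higher KO sum rests mostly on Krt8 (62.0 against 42.5 in het) and Krt18 (63.2 against 37.3). In replicate 2 it rests mostly on Tfap2c (31.3 against 16.7), also a germ cell gene, while Krt8 and Krt18 were lower in KO. Cdx2, Eomes and Hand1 were higher and Elf5 lower in KO in both replicates. The 6 fibroblast markers, of which replicate 2 lists 5, summed to 27.4 and 8.07 in het and to 52.7 and 6.10 in KO. The higher sum of KO replicate 1 rests on Fbn1, at 44.6 against 11.2 in het, while Thy1 was 1.23 against 7.54 and Col1a2 1.39 against 5.21. Of the endoderm markers, Gata4 was 0.824 and 0.200 in het and 1.95 and 2.11 in KO. Of all 3 lists, only the fibroblast marker Postn was listed at 0 in any of these 4 libraries, in Sall4 KO replicate 1. The part of these cells in the Dppa3 ratio was not tested. The primitive endoderm markers summed to 3.00 in the DKO control and 6.78 in DKO, the trophoblast markers to 39.2 and 164, while Dppa3 stood at 58.4 and 110. Most of that 164 came from the keratin genes Krt8 (63.9) and Krt18 (73.2), with Cdx2 at 0.0726 and Hand1 at 0.869. The fibroblast markers summed to 215 in the DKO control and 223 in DKO, and to 72.2 in Sall1 het and 68.9 in Sall1 KO. They summed to 6.74 and 3.13 with mutant SALL4A, 10.4 with wild-type SALL4A and 2.73 in TT2. The part of fibroblasts in the order of the libraries by Dppa3 was not tested. The Y-linked gene Eif2s3y also moved with Sall4 KO, from 12.3 and 33.1 in het to 0.0391 and 1.39. It stayed low in the add-backs, at 1.34 and 0.280 with mutant SALL4A and listed at 0 with wild-type SALL4A, where Dppa3 was 26.4, 12.7 and 101.

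**Figure D2:**
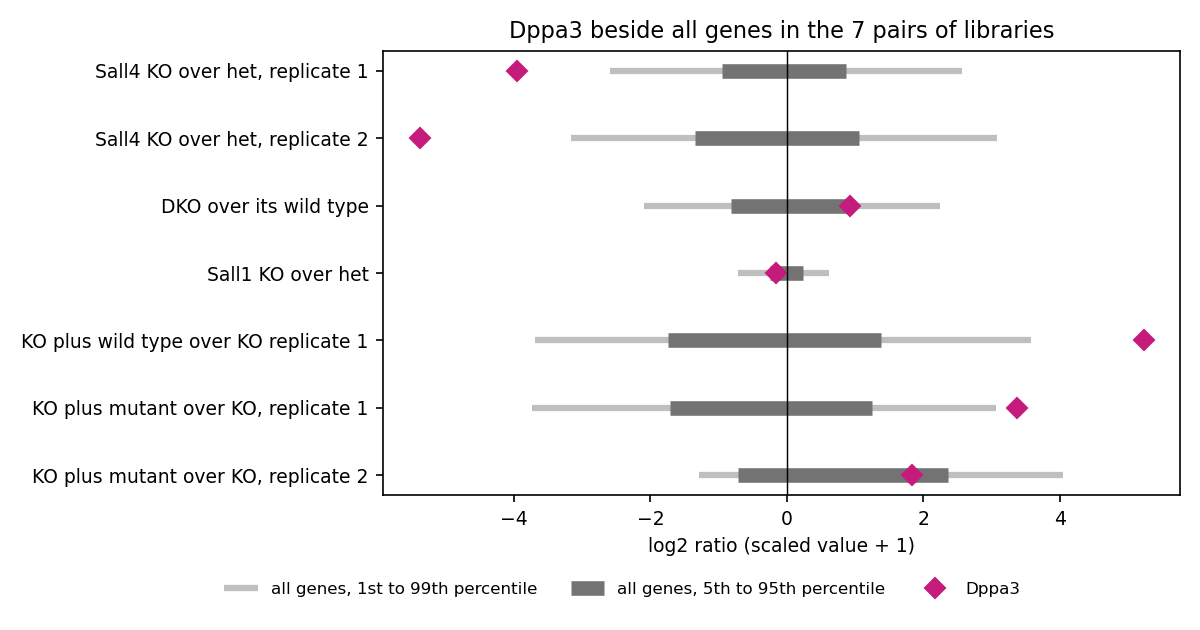
Log2 ratio of Dppa3 (diamonds) in the 7 pairs of libraries, over the 1st to 99th (thin bars) and 5th to 95th percentile (thick bars) of all genes at 5 or more in the pair. Dppa3 lies outside the wide range in both Sall4 KO over het pairs and, on the other side, in both add-back pairs of replicate 1, but within it in the other 3 pairs.

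The DKO pair showed the opposite sign. From 58.4 in the wild-type control, Dppa3 stood at 110 in the library labelled DKO. This log2 ratio of 0.92 falls short of 2-fold. In that pair 470 of 8621 genes had a higher ratio, and 4.83% were at least 2-fold higher and 3.67% at least 2-fold lower. The pair has no replicate. Dppa3 was 1 of 166 genes that were at least 2-fold lower in both replicates of Sall4 KO over het, where it ranked 16th and 5th by size. Of these genes, 113 are listed in the DKO pair, where no minimum was set on their values. There 42 were at least 2-fold lower and 5 at least 2-fold higher, beside 1.89% and 2.54% of all 23235 listed genes, which include genes under 5. Of the 68 at 5 or more in that pair, 30 were at least 2-fold lower and 4 at least 2-fold higher. The shares of all 8621 genes at 5 or more were 3.67% and 4.83%. The median log2 ratio of the 113 was -0.61. Only 30 of the 113 lay above 0, and the same 5 that were 2-fold higher lay above Dppa3. Those 5, named after their values were seen, are the microRNA gene Mir762, Dok2, an adaptor protein of tyrosine kinase signalling, Zbp1, a sensor of nucleic acids, Pgam2, a glycolytic enzyme, and the predicted gene Gm9112.

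In the Sall1 pair the Dppa3 levels were close, 81.1 in the het and 72.9 in the KO library. The log2 ratio was -0.16, and 884 of 8173 genes had a lower one. In this pair 0.722% of genes were at least 2-fold lower and 0.624% at least 2-fold higher. Over the whole gene, Sall1 RNA itself went from 21.8 to 13.3 in this pair.

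By the labels, both forms of SALL4A went with a higher Dppa3 level, while whole-gene Sall4 RNA was lower than in Sall4 KO. These ratios share their Sall4 KO libraries with the KO over het ratios, so a low KO value raises the one and lowers the other. In KO plus wild type over Sall4 KO replicate 1 the log2 ratio was 5.23, from 2.11 to 101 or 47.7-fold, and 30 of 8423 genes had a higher one. In KO plus mutant over Sall4 KO it was 3.37 in replicate 1, from 2.11 to 26.4 or 12.5-fold, with 62 of 8389 genes higher. In replicate 2 it was 1.83, from 3.58 to 12.7 or 3.55-fold, with 883 of 11139 genes higher. At least 2-fold higher were 8.55% of all genes for KO plus wild type, 7.51% for the mutant in replicate 1 and 14.5% in replicate 2. Of these 3 ratios, the mutant one of replicate 2 was within the 95th percentile of all genes.

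The mutant estimate over both replicates was 2.63 ± 0.70 (log2, SE, n = 2 per group, limma). It was 1.53 without KO plus mutant replicate 1 and 3.73 without KO plus mutant replicate 2. The wild-type and mutant forms can be set side by side only in replicate 1, where Dppa3 was 101 and 26.4, with 1 library each. The tables of the add-back libraries and of the Sall4 KO libraries were made with different annotations. In replicate 1, genes past 2-fold either way made up 22.7% for KO plus wild type and 20.8% for the mutant, beside 8.58% for Sall4 KO over het, whose tables share an annotation. The part of the annotation in these ratios was not tested.

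A near-identical copy of Dppa3 on the X chromosome, Gm6269, is listed in 3 tables (X, 35038012 to 35042776 in mm9) and was looked at after its values were seen. It stood at 19.5 in Sall4 het replicate 1, 1.46 in Sall4 KO replicate 1 and 4.40 in KO plus mutant replicate 2. That is 41.0%, 69.4% and 34.6% of the Dppa3 value in the same library, and reads may have been split between the copies, so the Dppa3 values are uncertain to that extent. With the copy added wherever it is listed, the log2 ratio was -3.89 for Sall4 KO over het replicate 1 and 4.68 for KO plus wild type. For KO plus mutant it was 2.83 in replicate 1 and 2.23 in replicate 2. Only in Sall4 KO over het replicate 1 is the copy listed on both sides. In KO plus wild type and KO plus mutant replicate 1 it was added to the Sall4 KO side alone, which lowers the ratio. In KO plus mutant replicate 2 it was added to the mutant side alone, which raises it, so that direction could not change. Every one of these 4 ratios kept its direction, but only the first sets like against like.

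Dppa3 lies in a cluster of pluripotency genes on chromosome 6, and 12 genes around it were read by distance, negative towards lower coordinates. Gdf3, a TGF-beta family ligand at -16.3 kb, had log2 ratios of 0.32 and -0.46 in Sall4 KO over het and -0.31 in the DKO pair. Gdf3 levels were 22.6 and 59.8 in Sall4 het and 28.2 and 44.8 in Sall4 KO, higher in KO in replicate 1 and lower in replicate 2. Nanog, the homeodomain factor of naive pluripotency at 77.2 kb, was 138 and 397 in Sall4 het and 88.9 and 208 in Sall4 KO. Within each replicate the KO library was lower, by log2 ratios of -0.61 and -0.99. Nanog had ratios of 2.94 in KO plus wild type over KO and of 2.38 and 0.45 in KO plus mutant over KO. In the DKO pair Nanog was lower, at -1.11, where Dppa3 was higher. Nanog has near-identical copies in the genome, and its values are uncertain for that reason.

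Slc2a3, the glucose transporter gene at 97.5 kb, had ratios of -0.11 and 0.86 in Sall4 KO over het and -0.56 in KO plus wild type over KO. Rimklb, an enzyme gene that ligates glutamate to N-acetylaspartate, at -140.09 kb, had -1.11 and -1.25 in Sall4 KO over het and -1.16 in the DKO pair. Of the 12 genes, 9 entered the limma fit of Sall4 KO against het. There 2 had a positive and 7 a negative estimate, with a median of -0.63 beside -0.015 for all genes, of which 48.3% were positive. None of the 9 passed at an adjusted p of 0.05, nor did any of the 15094 genes tested, so the share called was 0%. At an unadjusted p under 0.05 there were 1257 of these 15094 genes (8.33%) and 3 of the 9. No neighbour at 5 or more came within 2 log2 units of the Dppa3 ratio in either replicate of Sall4 KO over het.

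**Figure D3:**
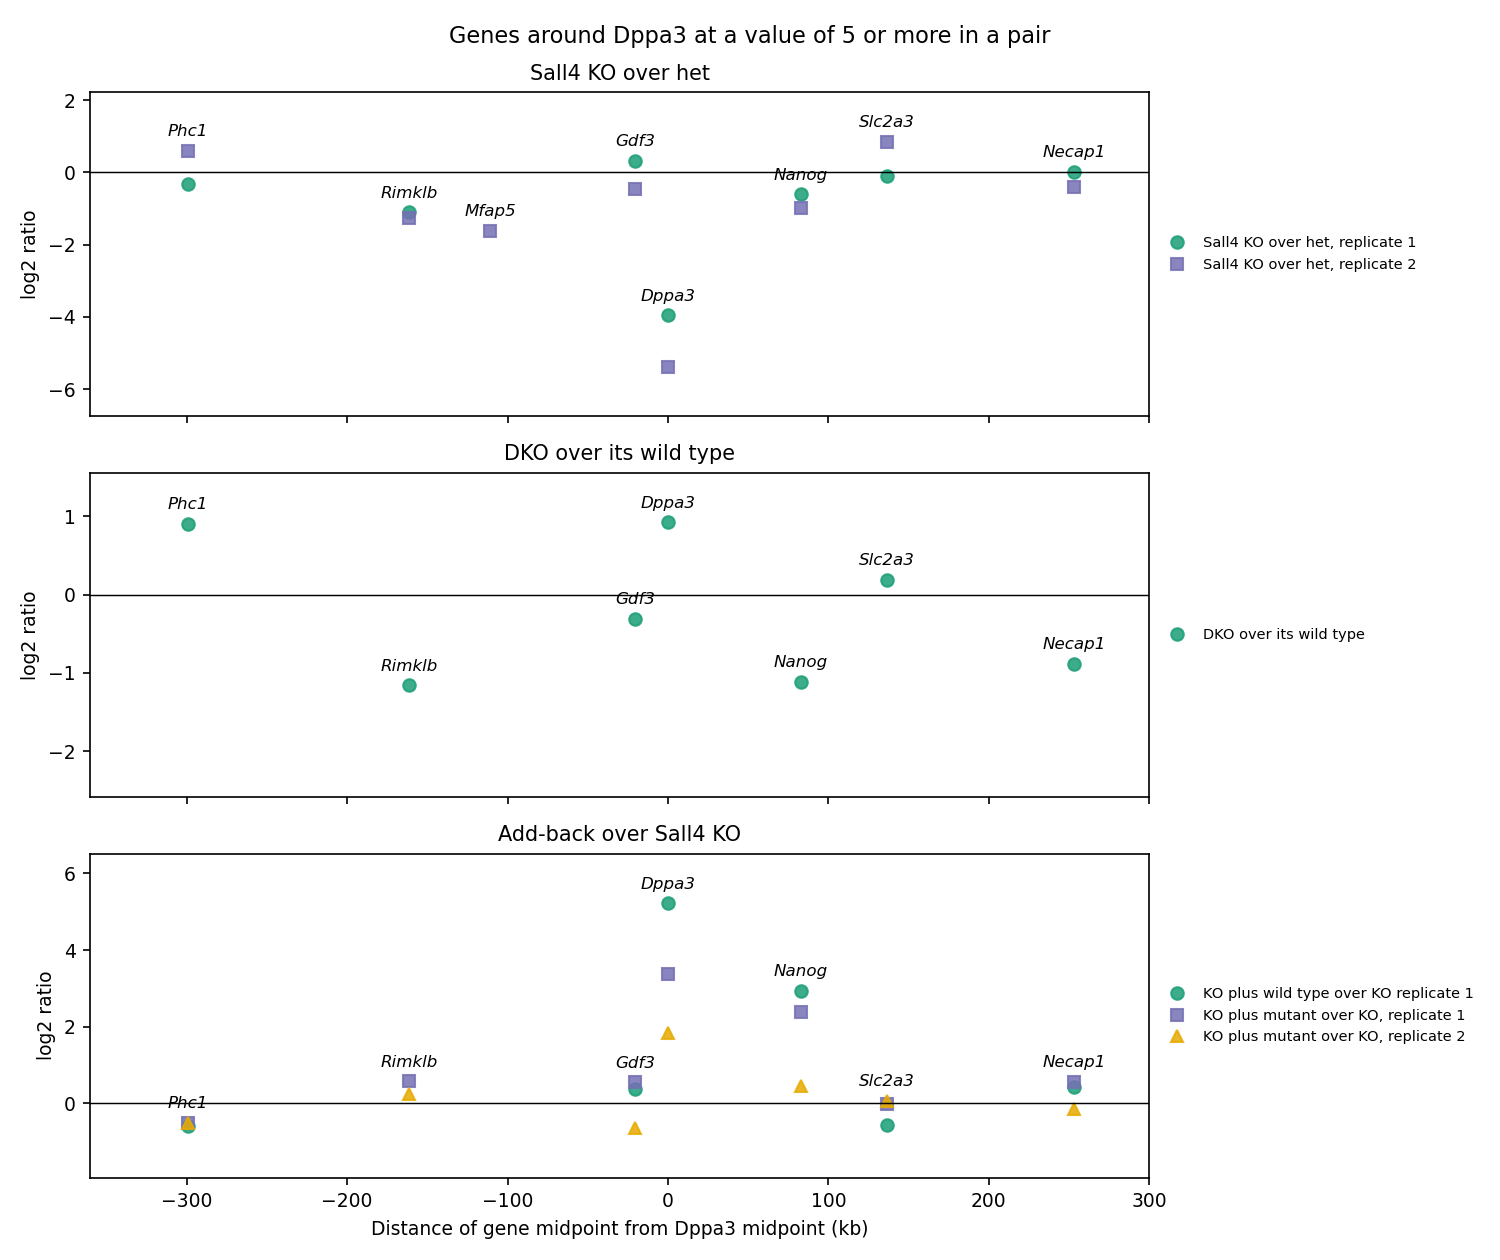
Log2 ratios of Dppa3 and its neighbours at 5 or more in a pair, by distance of the gene midpoint from that of Dppa3 (kb), for Sall4 KO over het, DKO over its wild type and the add-backs over Sall4 KO. A2m, with its midpoint at -970.6 kb, is not drawn. Dppa3 has the lowest ratios of the plotted genes in the first panel (-3.96 and -5.38) and the highest in the last (5.23, 3.37 and 1.83).

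Dppa3 shares its name series, developmental pluripotency associated, with genes that are not related in sequence to it. Dppa2 and Dppa4, partner chromatin proteins of the SAP domain family, and Dppa5a, an RNA-binding protein, were measured, and Dppa1 was at most 0.682. Dppa2 was 23.5 and 60.0 in Sall4 het and 29.7 and 52.5 in Sall4 KO. Dppa4 was 56.1 and 121 in het and 76.5 and 119 in KO, and Dppa5a was 1154 and 2080 in het and 1442 and 2707 in KO. Within replicates 1 and 2 the log2 ratio of KO over het was 0.34 and -0.25 for Dppa2 and 0.45 and -0.076 for Dppa4, which differ in sign. For Dppa5a it was 0.33 and 0.32, higher in KO in both. The limma estimates for these 3 genes were 0.029 ± 0.53, 0.17 ± 0.40 and 0.31 ± 0.50 (log2, SE, n = 2 per group). None of them passed the test.

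Genes listed as partners of DPPA3 or in cytosine methylation were measured in full, all 15 of 15. Uhrf1, whose product DPPA3 displaces from chromatin, was 90.6 and 56.4 in Sall4 het and 78.7 and 84.6 in Sall4 KO, with ratios of opposite sign in the replicates and a limma estimate of 0.15 ± 0.40. Dnmt1, the maintenance methyltransferase, was 45.2 and 29.3 in het and 41.4 and 42.1 in KO, at 0.15 ± 0.24. Tet3, the zygotic dioxygenase, was low in every library, at 1.30 and 0.376 in het and 2.48 and 1.27 in KO, at 0.62 ± 0.22, and was higher in KO in both replicates. Kpna6, an importin that carries proteins into the nucleus, had an estimate of -0.26 ± 0.30, and Ehmt2, which dimethylates lysine 9 of histone H3, -0.098 ± 0.54.

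In all, 9 of the 15 estimates were positive and 6 negative, with a median of 0.090, and none passed the test. In KO plus mutant against Sall4 KO, 5 were positive and 10 negative, with a median of -0.38 beside -0.022 for all genes, and again none passed. Nor did any of the 11636 genes tested there (0%), while 1137 (9.77%) had an unadjusted p under 0.05. The lowest estimate was that of the de novo methyltransferase gene Dnmt3a, at -1.09 ± 0.74, with a ratio of -2.41 in replicate 1 but 0.18 in replicate 2. In the DKO pair 2 of the 15 genes were at least 2-fold higher, the de novo methylation genes Dnmt3l at 2.78 and Dnmt3b at 1.83, and 8.49% of all genes passed 2-fold either way.

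**Figure D4:**
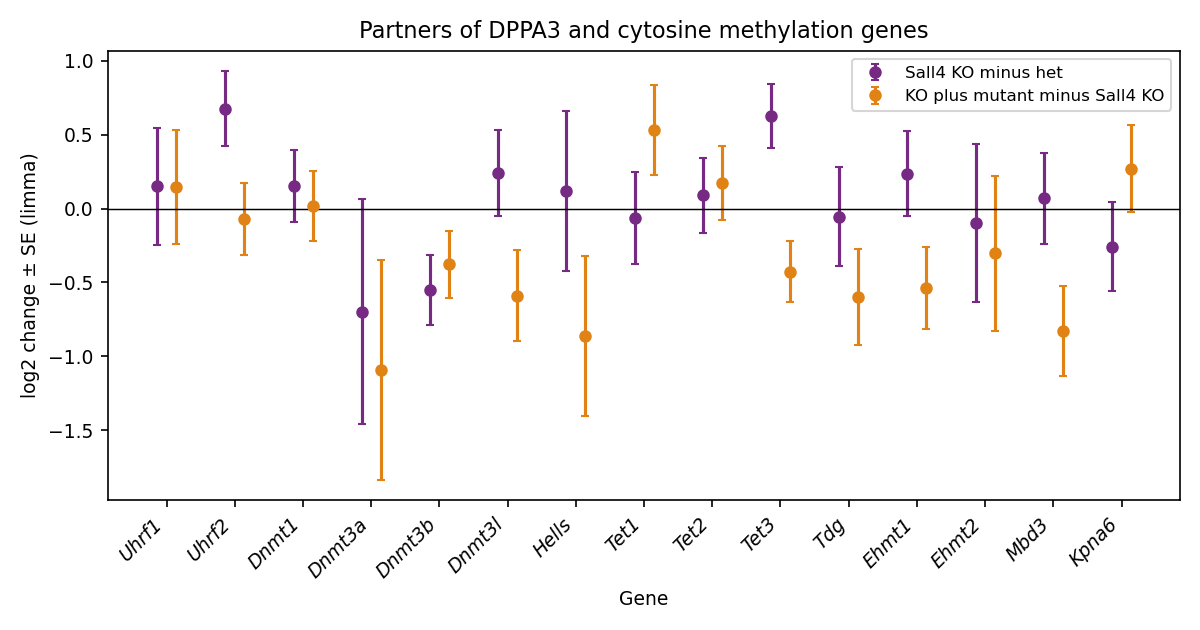
Limma log2 changes (points) with their SE (bars, n = 2 libraries per group) of the 15 genes listed as partners of DPPA3 or in cytosine methylation, for Sall4 KO minus het and for KO plus mutant minus Sall4 KO. No gene passed an adjusted p of 0.05 in either comparison, and the estimates of Sall4 KO minus het lie between -0.70 for Dnmt3a and 0.67 for Uhrf2.

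Other genes of the naive state and of the germ line had estimates of both signs in Sall4 KO against het. Of 14 naive pluripotency genes, 13 entered the fit of Sall4 KO against het, 7 with a positive and 6 with a negative estimate and a median of 0.0059. Tfcp2l1, a transcription factor of the naive network, had 1.20 ± 0.33, and Pecam1, a surface adhesion protein, -1.05 ± 0.36. In the DKO pair, where Dppa3 was higher, 5 of 14 naive genes were at least 2-fold lower, beside 3.67% of all genes, with a list median of -0.59. Of all 9 primed epiblast genes, 5 were at least 2-fold higher there, beside 2.54% of all listed genes. They are Zic2 and Dnmt3b, and also Lef1, Sox3 and Sox4, which lay under 5 in the control. Of the primordial germ cell genes, 12 were fitted, with 8 positive, 4 negative and a median of 0.11. Prdm1, the repressor that sets germ cell fate, had 0.78 ± 0.27. None of these genes passed the test.

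Germline genes that promoter methylation is known to silence mostly had negative estimates, as Dppa3 did. Of 15 fitted, 13 had a negative estimate in Sall4 KO against het, with a median of -0.24 beside -0.015 for all genes. Of all genes, 48.3% had a positive estimate. Several of the 15 lay under 5 in every Sall4 het and KO library. Tuba3a, a testis tubulin, was 38.1 and 46.6 in Sall4 het and 8.93 and 4.53 in Sall4 KO, at -2.56 ± 0.36 (limma adjusted p = 0.366). The mutant add-back held 18.7 and 12.9 and the wild-type add-back 22.8. Hormad2, a meiotic chromosome axis protein, was 5.26 and 22.1 in het and 0.356 and 0.333 in KO, at -3.12 ± 0.54 (limma adjusted p = 0.389). Dazl, an RNA-binding protein of germ cells, was 4.45 and 7.69 in het and 2.49 and 1.402 in KO, at -1.25 ± 0.37. None of the 15 passed the test.

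Unlike Dppa3, these 3 germline genes were lower in the library labelled DKO than in its control. The log2 ratios were -2.13 for Tuba3a, -1.14 for Hormad2 and -1.59 for Dazl, beside 0.92 for Dppa3. Hormad2 was under 5 in both libraries of the pair, at 2.28 in the control and 0.476 in DKO. Of all 17 genes of that list, with no minimum value, 5 were at least 2-fold lower, beside 1.89% of all listed genes. The difference between Dppa3 and these genes was not tested, since the pair has 1 library per group.

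Imprinted genes, some of whose methylation marks DPPA3 is known to protect in the embryo, went in mixed directions in Sall4 KO against het. The list also held Zfp57 and Trim28, which maintain imprints and are not imprinted themselves. Of 10 genes fitted, 5 had a positive and 5 a negative estimate in Sall4 KO against het, with a median of 0.32. Without these regulators 5 were positive and 3 negative, with a median of 0.77. None of the 10 passed the test, and 6 had an unadjusted p under 0.05, beside 8.33% of all genes. Peg3, a paternally expressed zinc finger gene, was 8.02 and 3.31 in Sall4 het and 38.4 and 19.1 in Sall4 KO, at 2.13 ± 0.23 (limma adjusted p = 0.354). Igf2, the growth factor gene, was 15.7 and 2.79 in het and 45.2 and 16.1 in KO, at 1.78 ± 0.24. Nnat, a paternally expressed membrane proteolipid gene, was 17.6 and 19.003 in het and 6.58 and 9.69 in KO, at -1.13 ± 0.21. In these 3 genes both replicates had the same direction. The DKO pair was more one-sided. Of all 15 genes of the list, with no minimum value, 12 had a ratio above 0 there, with a median of 0.72. At least 2-fold higher were 7 and at least 2-fold lower 0, beside 2.54% and 1.89% of all listed genes. That pair has 1 library per group, and the difference was not tested.

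In KO plus mutant against Sall4 KO, 9 of the 10 estimates of this list were negative, with a median of -1.11 beside -0.022 for all genes. Of all genes, 48.0% had a positive estimate there. Without Zfp57 and Trim28, 7 of 8 were negative, with a median of -1.49. None passed the test, and 5 of the 10 had an unadjusted p under 0.05, beside 9.77% of all genes. Peg3 had -1.42 ± 0.23, Igf2 -2.03 ± 0.24 and Nnat -1.99 ± 0.21. The Nnat level was 0.799 and 1.15 with mutant and 24.8 with wild-type SALL4A. Peg3 was 9.94 and 5.83 with mutant and 9.24 with wild-type SALL4A, and Igf2 was 9.49 and 2.11 with mutant and 7.11 with wild-type SALL4A. In KO plus wild type over Sall4 KO replicate 1 the log2 ratios were -1.72 for Peg3, -2.29 for Igf2 and 1.98 for Nnat. Of the maternal-effect genes, the class to which Dppa3 belongs, only 4 of 10 were fitted, 2 with a positive and 2 with a negative estimate in Sall4 KO against het. Zp3, a protein of the egg coat, had -0.999 ± 0.22 and did not pass.

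Genes with a pattern like that of Dppa3 were ranked by Pearson r of log2(scaled value + 1) over the 11 gene-level libraries, among 8036 genes. These libraries differ in annotation, unit and strain label, and both Sall4 KO libraries weigh heavily, so r is a description. The median r of all genes was 0.0047, the 95th percentile 0.67, and 9 genes exceeded 0.9. The 10 highest were Hsd17b10 (0.98), Fmr1nb (0.96), Sap30l, Hspb11, Tdrd12, Glipr2, Mrpl55, Dnajc19, Snrnp27 and Adat2 (0.90). High r went with very different ranges: Hsd17b10, a mitochondrial dehydrogenase, spanned 0.63 log2 units over the 11 libraries, where Dppa3 spanned 5.87. Fmr1nb, a germ-cell-expressed membrane protein gene next to Fmr1, spanned 3.21, and Tdrd12, a tudor domain protein of the piRNA pathway, 2.47.

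Fmr1nb was 38.1 and 101 in Sall4 het, 10.1 and 15.2 in Sall4 KO, 31.7 and 29.6 with mutant SALL4A and 66.1 with wild-type SALL4A. It was 43.0 in the DKO control and 51.02 in DKO, a log2 ratio of 0.26. Like Dppa3, it was lowest in both Sall4 KO libraries and higher in the library labelled DKO than in its control. Fmr1nb was chosen by r over these same libraries, so such likeness is partly built in. Tdrd12 was 26.5 and 30.0 in Sall4 het, 7.79 and 9.96 in Sall4 KO, 16.4 and 13.1 with mutant SALL4A and 28.4 with wild-type SALL4A. In the DKO pair Tdrd12 had a ratio of -0.19. Without both Sall4 KO libraries, an alternative chosen after the data were seen, only 1 of the 10 genes was still among the 10 highest, and r was 0.85 for Fmr1nb and 0.92 for Hsd17b10.

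The most opposite patterns were those of Elk3 (-0.92), an ETS family transcription factor, Ece1 (-0.90), the endothelin-converting enzyme, Bace1 (-0.89), Rab23 (-0.88) and Fndc3a (-0.88). Elk3 was 5.34 and 2.04 in Sall4 het, 9.03 and 7.78 in Sall4 KO, and 2.55 and 3.58 with mutant SALL4A. It was highest in both Sall4 KO libraries, which is partly built in, since Elk3 was chosen by r over these same libraries. The neighbour Nanog had an r of 0.64, higher than 93.6% of all genes. Sall4 had an r of -0.63 and Tet1 of -0.39.

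**Figure D5:**
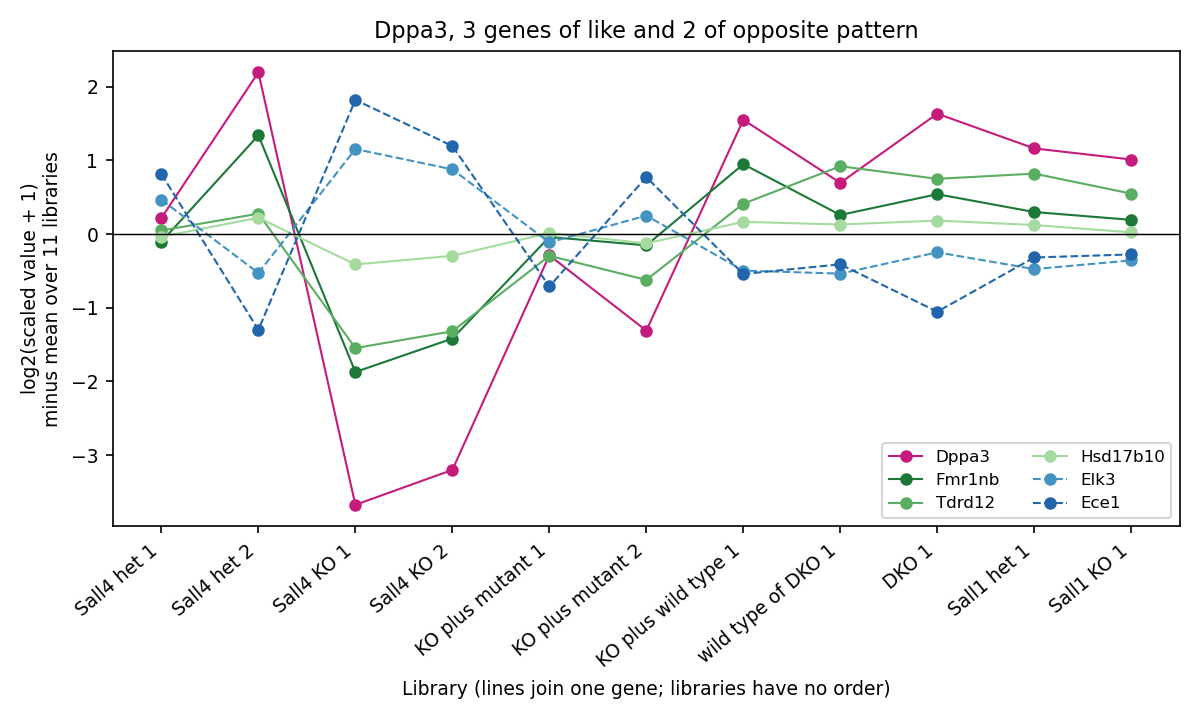
Log2(scaled value + 1) minus its mean over 11 libraries, for Dppa3, 3 of the genes most like it (solid lines) and 2 of the most opposite (dashed lines), 1 point per library. Hsd17b10 follows Dppa3 with r = 0.98 over a range of only 0.63 log2 units, while Dppa3 covers 5.87.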

How the data were processed

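The 12 expression tables were used as the authors deposited them. Per the file headers, 9 hold FPKM and 3, of replicate 2, hold RPKM. The TT2 table is called RPKM by its name and FPKM by its header. TopHat, Bowtie 0.12.7, SAMtools, MACS 1.4.2 and mm9 are named in the submitters' processing notes, without roles. Which tool made each table, and the depth, are not given in the sources used here.

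Entries of one symbol were summed. TT2 transcripts were given symbols from a RefSeq table of GRCm38.p6 (names only, 239 of 47834 unmatched), and 1225 entries without a gene name were left out of each Sall4 het and KO replicate 1 table. For 6 libraries (Sall4 het, Sall4 KO, KO plus mutant), log2(scaled value + 1) of genes at 1 or more in at least 2 libraries was fitted with limma 3.58.1 in R 4.3.3. Terms were group and replicate number, since unit, annotation and strain label differ between the numbers. Tests were two-sided and Benjamini-Hochberg adjusted over all genes. The fit was also run on simulated data with the same spread for all genes, which does not measure its power on these libraries. With 2 libraries per group, a gene that did not pass cannot be read as unchanged. Ratios and figures came from Python 3.11.15 (numpy 2.4.6, pandas 2.3.3, matplotlib 3.10.9). Genes named are Dppa3, SALL and TET genes, the DPPA-named, partner and neighbour genes, up to 6 members per other list, and the 10 most like and 5 most opposite genes. The gene, lists and rules were chosen with earlier results of these data known. Alternatives were other pseudocounts, scalings, filters, no replicate term and leaving out libraries.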

Additional observations from a re-analysis of the deposited data

Results flagged for a closer look

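Only Dppa3 and the DPPA-named genes were screened for this flag. Of these, Dppa3 and Dppa5a differed in direction between Sall4 KO (both replicates) and the DKO, each against its own control. Dppa3 had a log2 ratio of 0.92 in the DKO pair, against -3.96 and -5.38 in Sall4 KO over het. Dppa5a had -0.20 in the DKO pair, against 0.33 and 0.32 in Sall4 KO over het. Such a reversal is not particular to them. In Sall4 KO over het, Dnmt3b had -0.58 and -0.49, Nnat -1.28 and -0.96, and Peg3 2.14 and 2.17. In the DKO pair these genes had 1.83, 2.75 and -0.43. Others, such as Rimklb and Tuba3a, were lower in both comparisons, and the genes that reversed were not counted. The difference in direction was not tested, because the DKO pair has 1 library per group, and the pairs also differ in annotation. The SD of the 2 KO over het ratios of Dppa3 was 1.01.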

How the results depend on the processing

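Dppa3 kept its direction in all 7 pairs under other pseudocounts, scalings and single entries. The 4 ratios of the replicated comparisons moved by less than the SD between their replicates, and the other 3 pairs have no replicate to set a move against. Those ranged from 0.90 to 0.97 (DKO), from -0.16 to -0.15 (Sall1 KO) and from 4.68 to 5.81 (KO plus wild type). The 4.68 is the ratio with Gm6269 added to the Sall4 KO side alone. Leaving out 1 library at a time gave limma estimates for Dppa3 of -5.77 to -3.54 (Sall4 KO minus het) and 1.53 to 3.73 (KO plus mutant minus Sall4 KO). Genes called then ranged from 0 to 0 and from 0 to 828. The 433 calls without KO plus mutant replicate 1 (429 higher, 4 lower) and the 828 without KO plus mutant replicate 2 (290 higher, 538 lower) assume that the lone library varies like the other groups; the cause was not tested. Without the replicate block 0 genes were called in either comparison, and the Dppa3 estimates were -4.66 ± 0.74 and 2.63 ± 0.69. With values as deposited the median of all genes in KO plus mutant minus Sall4 KO was -0.28, against -0.022, and Dppa3 stood at 2.36. Of the 10 genes most like Dppa3, 5 were shared with Spearman's rho, 3 with TT2 added, 5 with values as deposited, 2 with r over the 7 ratios, which share libraries, and 1 without both Sall4 KO libraries. Leaving out 1 library at a time shared 5 to 10; the cause was not tested. Depth is unknown, so counting error could not be given for the low Sall4 KO values.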
